A study of Mus musculus with 43 samples.

Results

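The conditional deletion of Cux1 was compared with wild type (WT) in sorted layer 2/3 (L2/3) cells of the mouse somatosensory cortex at postnatal day 4 (P4). The comparison rests on 5 of the 43 libraries of the study, 2 from Cux1 KO males and 3 from WT males, taken by genotype, stage and sex as labelled. Neuronal progenitors were labelled by in utero electroporation, and the GFP+ cells were recovered by sorting and profiled by bulk RNA-seq on an input of 300 pg of RNA. At P4 the study also holds libraries of WT females and of Cux2 KO females and males. Its embryonic libraries (E19) cover WT, Cux1 KO and Cux2 KO in both sexes, and its later libraries are WT.

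The transgenic lines were kept on a C57BL6JRccHsd background, to which the floxed allele was brought by repeated crosses. WT embryos received a plasmid that expresses GFP in every transfected cell (pCAG-GFP). The Cux1 KO animals carried a floxed Cux1 allele over a deleted one (f/Δ23) and received a Cre plasmid (pCAG-iCre) with a GFP reporter that Cre switches on (pCALNL-GFP), so the GFP+ cells were Δ23/Δ23 inside heterozygous animals. The genotype, the Cre plasmid and the GFP reporter therefore differed together from WT and cannot be told apart, and no Cre control with intact Cux1 was analysed here. The E19 Cux1 KO used a germline allele (ΔC) and Cux2 KO animals were germline null, both with the WT plasmid. The study recorded more death of Cux1 KO cells during dissociation, and no Cux1 KO libraries of P4 females or of later stages were analysed here.

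CUX1 and its paralogue CUX2 are homeodomain transcription factors with CUT repeats, and both mark upper-layer neurons of the cortex. These neurons come from radial glia that later give rise to astrocytes, oligodendrocytes and ependymal cells, whereas cortical interneurons migrate in from the ventral forebrain. Plasmids delivered to radial glia can thus label several kinds of descendant.

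The exon numbered 23 is shown because its deletion defines the allele. It was identified here by its rank in a GENCODE M39 transcript of 24 exons, and 9 of 51 Cux1 transcripts hold it, so its identity with the exon floxed in the study rests on that numbering. Exon 23 of Cux1 lies at chr5:136308284-136308548 on the minus strand of GRCm39 and is 265 bases long. It is coding sequence and holds part of the homeodomain. The capitals mark the codons of the tryptophan, phenylalanine and asparagine signature of the recognition helix, at bases 249 to 260.
Cux1 exon 23: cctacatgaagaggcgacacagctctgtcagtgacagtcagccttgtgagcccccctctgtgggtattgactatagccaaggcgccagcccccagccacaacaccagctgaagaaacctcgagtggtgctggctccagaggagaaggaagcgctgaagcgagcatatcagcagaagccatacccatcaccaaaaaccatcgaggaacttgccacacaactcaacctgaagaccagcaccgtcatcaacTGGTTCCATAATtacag

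The Cux1 KO libraries stood apart from all other P4 libraries in how many genes they detected. Their totals were 19499125 and 40421655 counts, against 50429979, 35891853 and 60559585 in WT males. Genes with at least 10 counts numbered 14816 and 16734 in the Cux1 KO libraries and 19671, 19594 and 18326 in WT males. The shortfall was also present at matched depth. With every library thinned to the smallest P4 total, the numbers with at least 1 count were 17049 and 18462 in Cux1 KO and 21508, 21951 and 19760 in WT males. Of 16189 genes with at least 10 counts in all 3 WT males, 1799 and 1005 had 0 counts in the Cux1 KO libraries and 643 had 0 in both, whereas the other P4 libraries outside that group lost between 87 and 253. The reverse was rare, with 32 genes at 10 or more counts in both Cux1 KO libraries and 0 in all WT males. The part that the amount or quality of input RNA had in these losses was not tested, so a 0 in a Cux1 KO library is given below as a count and not as absence of expression.

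**Figure D1:**
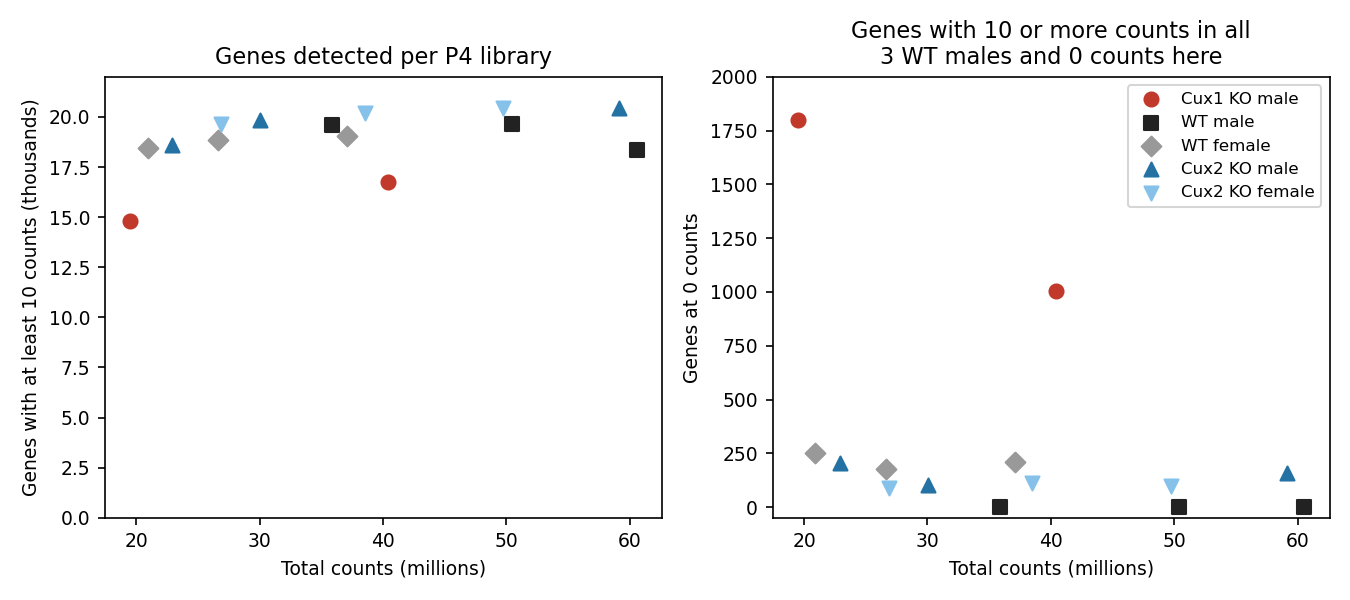
Genes detected in the 14 P4 libraries. Each point is a library, placed by its total count, with the genes at 10 or more counts on the left and, on the right, the genes at 0 counts among those with 10 or more counts in all 3 WT males (0 for WT males by definition). The Cux1 KO libraries lie lowest on the left, at 14816 and 16734 genes, and highest on the right, at 1799 and 1005 genes.

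The replicates within each group were also unlike each other. Over 13945 genes with a mean of at least 5 CPM (counts scaled by effective library size) in either group, the median absolute log2 difference was 0.55 between the 2 Cux1 KO libraries, 0.32 to 0.44 between WT males and 0.27 to 0.32 between Cux2 KO males. Nothing in the labels says whether replicates came from separate animals, so the p-values measure the spread between these samples, which may be technical.

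The label of L2/3 excitatory neurons was checked against marker genes on a scale of CPM per kilobase of exon. The upper-layer gene Cux2 stood at 7.62 and 9.20 in Cux1 KO and at 3.02, 2.997 and 4.41 in WT males. The astrocyte water channel Aqp4 stood at 85.4 and 97.8 in Cux1 KO and at 138, 85.8 and 149.6 in WT males, and Pdgfra, the receptor of oligodendrocyte precursors, at 38.3 and 43.7 against 58.3, 39.03 and 70.5. Aqp4 and Pdgfra were thus above Cux2 in all 5 libraries, as was the glial gene Slc1a3. Other markers of cells outside L2/3 did not rank this way. The myelin gene Cldn11 stood at 0 and 0.0102 in Cux1 KO, below Cux2, but was above Cux2 in all WT males. The interneuron gene Gad1 stood at 0.488 and 0.414 in Cux1 KO, also below Cux2, and lay on both sides of Cux2 in WT males. The samples are described below as sorted GFP+ cells. In such bulk samples, fewer cells of a type and less RNA per cell cannot be told apart.

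Differential expression was tested with edgeR's quasi-likelihood test, fitted on all 14 P4 libraries so that the groups share an estimate of spread. Genes that changed by more than 1 on the log2 scale, at an adjusted p (Benjamini-Hochberg) below 0.05, were called differentially expressed (DEGs). Of 23658 genes tested, 874 were higher in Cux1 KO (3.69%) and 1723 were lower (7.28%), and 6921 had an unadjusted p below 0.05. The median log2 fold change of all genes was -0.22, and -0.11 with scaling factors taken from protein-coding genes without ribosomal and mitochondrial ones. The genes called higher included 450 protein-coding genes and 368 processed pseudogenes, whose reads can be shared with their parent genes, and those called lower included 1412 protein-coding genes and 187 long noncoding RNAs.

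These counts depend on the assumption that all P4 groups vary alike. Fitted on the 5 libraries alone, edgeR called 0 of 19601 genes, with 4021 at an unadjusted p below 0.05 and a smallest adjusted p of 0.0764, while DESeq2 with its fold change prior called 840 higher and 1434 lower on the same libraries. A limma fit with a weight for each group gave Cux1 KO and WT males the lowest weights (0.55 and 0.60, against 1.26 to 1.44 elsewhere) and called 544 genes higher (2.3%) and 225 lower (0.951%), or 3.25% of all genes, of which 736 were also edgeR calls. Genes higher thus made up 33.7% of the calls in edgeR and 70.7% in the weighted fit, which was chosen after seeing the data. The counts of calls that also passed this weighted fit are given below. An exact permutation test of 2 against 3 libraries cannot give a two-sided p below 0.2.

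**Figure D2:**
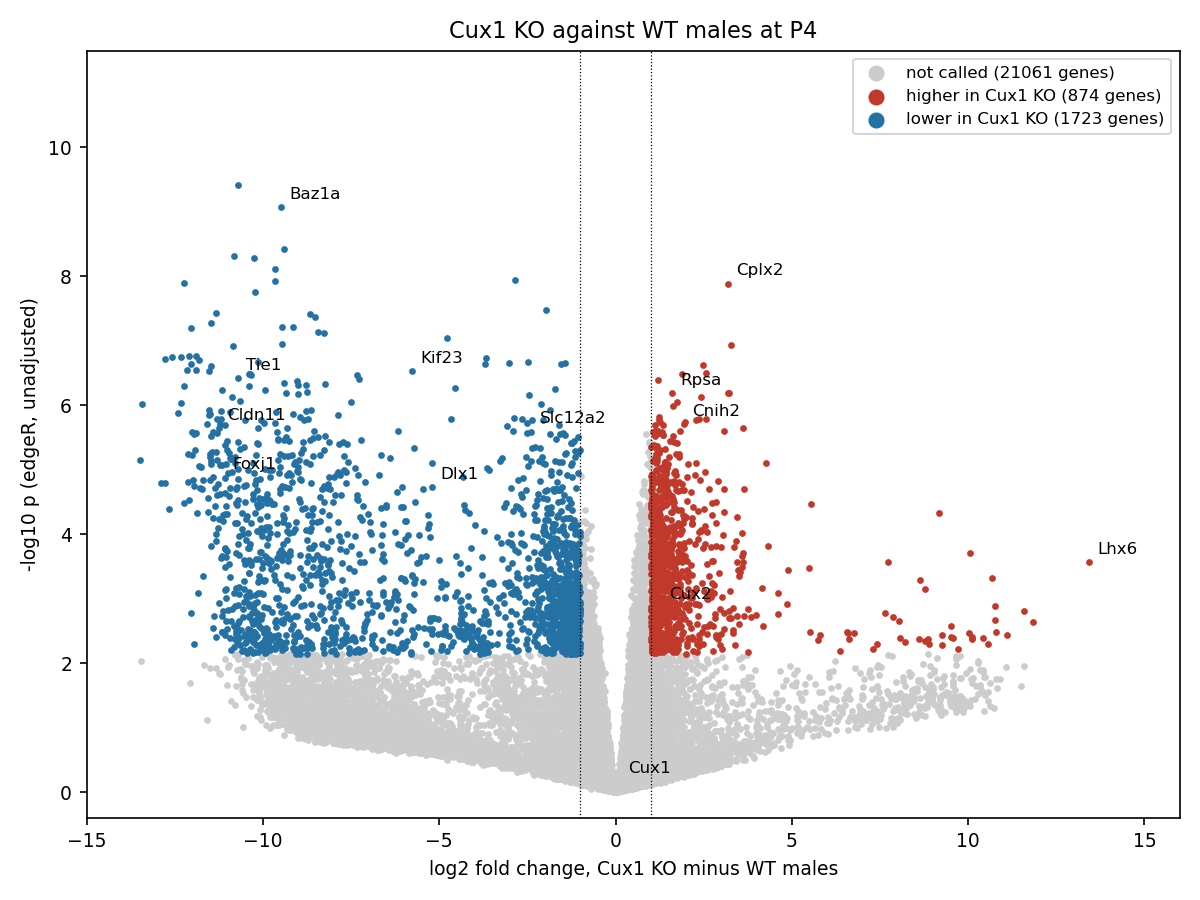
Volcano plot of 23658 genes, with the log2 fold change of Cux1 KO minus WT males on the x axis and the -log10 of the unadjusted edgeR p on the y axis. Red points are the 874 genes called higher and blue points the 1723 called lower, and the cloud of blue points beyond -8 holds genes at or near 0 counts in both Cux1 KO libraries.

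The targeted gene was measured first. Cux1 (chr5:136276755-136596408, minus strand, GRCm39) was at 89.6 and 182 CPM in the Cux1 KO libraries and at 95.1, 170.1 and 107 CPM in WT males. The groups overlapped, and the log2 fold change was 0.13 ± 0.32 (SE, adjusted p = 0.843, edgeR). The counts are sums over the whole gene, of which the deleted exon is a small part, so they do not check the deletion. The paralogue Cux2 was at 86.5 and 104 CPM in Cux1 KO and at 34.3, 34.05 and 50.1 CPM in WT males. It was higher in both Cux1 KO libraries (log2 fold change 1.28 ± 0.30, adjusted p = 0.0162, edgeR), a call lost in the weighted fit and without WT replicate 1, WT replicate 2 or Cux1 KO replicate 2. Cux2 lies on the same chromosome as Cux1, and of 563 genes tested within 20 Mb of Cux1, 4.26% were called higher and 7.46% lower, near the shares for all genes.

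Baz1a, a subunit of ISWI chromatin remodelling complexes, was lower in Cux1 KO. It had 1 and 2 counts in the Cux1 KO libraries against 1670, 1838 and 2245 in WT males, or 0.0541 and 0.0501 CPM against 32.4, 50.5 and 35.4 CPM. Pooled over libraries, WT exceeded Cux1 KO 740-fold (95% counting interval 253 to 3588), and the adjusted p was 1.01e-05 (edgeR). The call passed the weighted fit and the omission of each library in turn. Baz1a stood at 29.8, 24.5 and 27.3 CPM in Cux2 KO males, which also differed from Cux1 KO (adjusted p = 1.69e-05, edgeR).

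Lhx6, a transcription factor of interneurons born in the medial ganglionic eminence, went the other way. It had 214 and 2499 counts in Cux1 KO and 0 in all 3 WT males, at least 2345-fold higher against a floor of 3 counts over the WT group (adjusted p = 0.00543, edgeR, not called in the weighted fit). The level was uneven, with 11.6 CPM in one Cux1 KO library and 62.6 CPM in the other. The gene was not silent in other P4 groups, since it was at 2.66, 11.2 and 0.948 CPM in Cux2 KO males, and against these the difference did not pass the test (adjusted p = 0.235, edgeR). WT females were at 1.24, 0 and 0.237 CPM.

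Cldn11, a claudin of the myelin sheath, had 0 and 1 counts in Cux1 KO and 3229, 1530 and 2766 in WT males. The pooled ratio of WT to Cux1 KO was 2902 (95% counting interval 521 to 114651), with an adjusted p of 0.000422 (edgeR). No sample of either group came near the other, and the call was kept when any single library was left out but not in the weighted fit. Cldn11 was at 46.1, 71.1 and 13.8 CPM in Cux2 KO males.

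**Figure D3:**
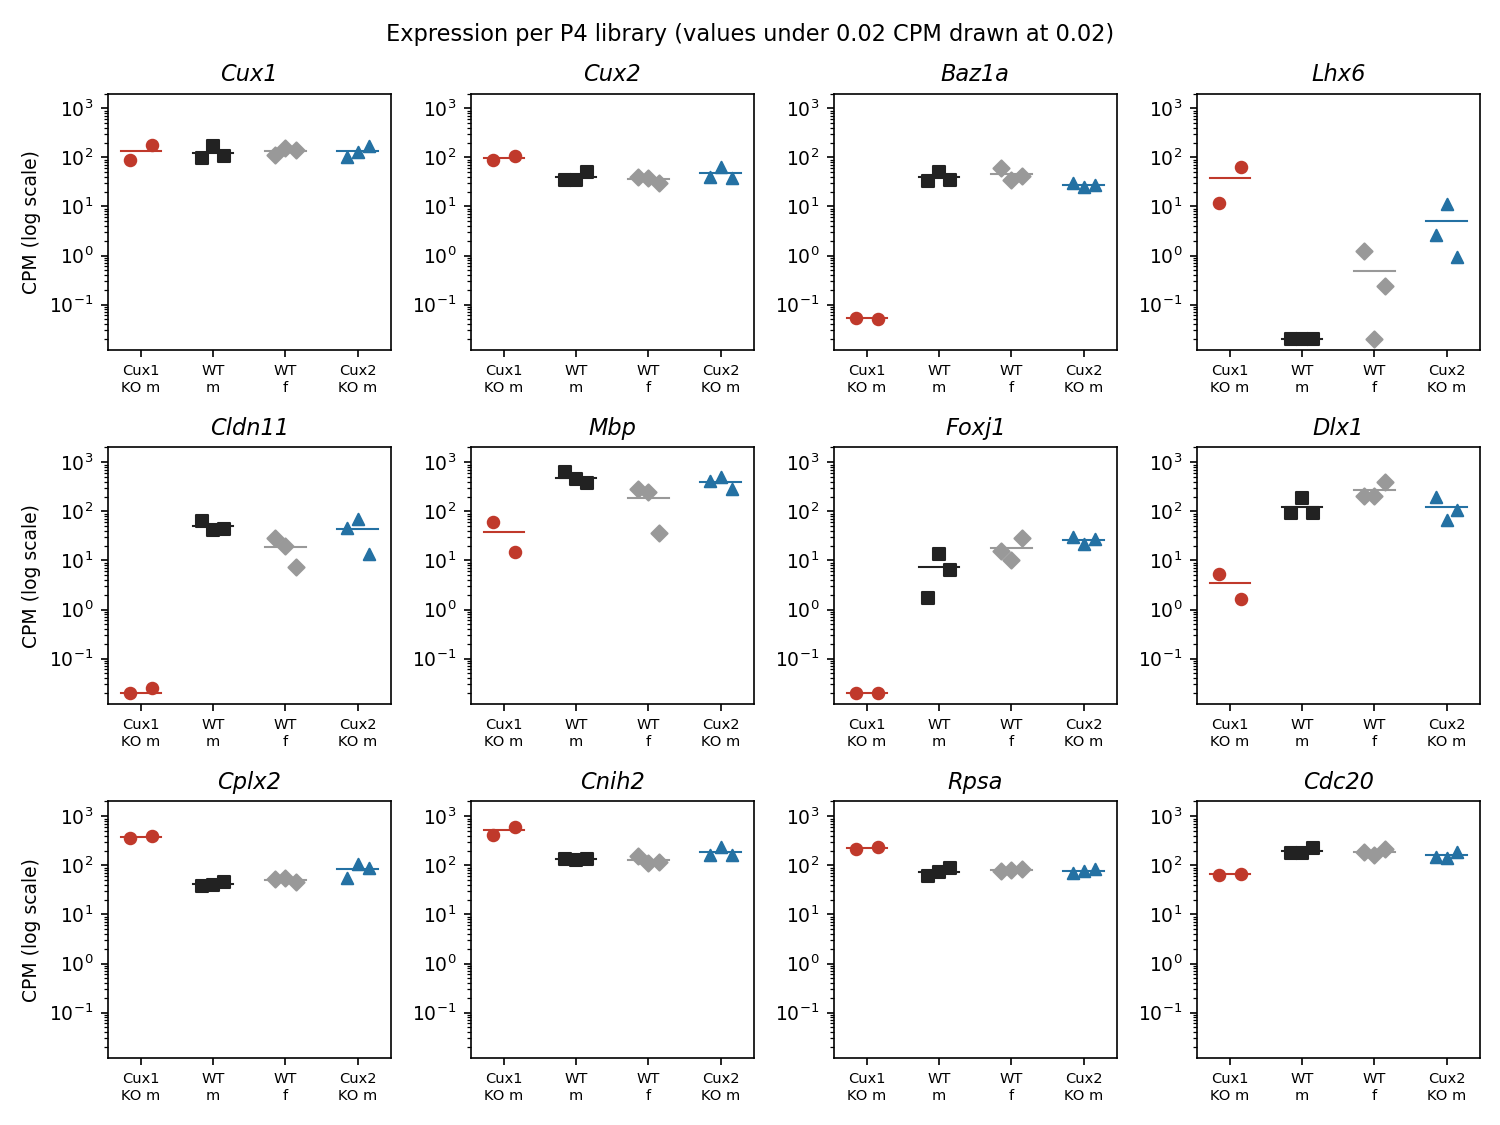
Level of 12 genes in each P4 library, in CPM on a log axis, with a horizontal line at the group mean and values under 0.02 CPM drawn at 0.02. Cux1 KO libraries (red) overlap WT males (black) for Cux1, lie at or below 0.0541 CPM for Baz1a, Cldn11 and Foxj1, and lie above the other groups for Cplx2, Cnih2 and Rpsa.

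Cldn11 was among several genes of the oligodendrocyte lineage called lower. Of 20 lineage genes tested, 8 were called lower and 0 higher, against 7.28% and 3.69% of all genes. The median log2 fold change was -1.56. The genes called lower belong to differentiation and myelin, among them the regulator Myrf, the myelin components Mbp, Mog and Mag, and Enpp6, an enzyme of newly formed oligodendrocytes. Mbp, the myelin basic protein gene, was at 59.6 and 15.1 CPM in Cux1 KO and 648, 449.98 and 370 CPM in WT males (log2 fold change -3.72 ± 0.93, adjusted p = 0.0203, edgeR). In WT females Mbp was at 281, 246 and 35.6 CPM, the last within the Cux1 KO range. The summed level of the list was 1772 and 1576 CPM in Cux1 KO and 3355 to 4487 CPM in WT males. In WT females it was 911 to 2612 CPM, with replicate 3 below both Cux1 KO libraries. Myrf had 1 count in each Cux1 KO library and 825, 592 and 1184 counts in WT males. The genes of precursors did not pass the test, with Pdgfra at 471 and 538 CPM in Cux1 KO and 717, 480 and 868 CPM in WT males, and Olig1 at 435 and 391 CPM against 563, 399.9 and 399 CPM. The count of 8 fell to 3 without Cux1 KO replicate 2, to 4 without WT replicate 1, to 5 without WT replicate 2 and to 0 in the weighted fit. It was 2 with library depth as a covariate.

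Interneuron genes did not move together. Of 23 tested, 9 were called lower (among them Dlx1, Slc32a1, Gad1, Sp8, Sp9 and Dlx2) and 2 higher (Lhx6 and Maf). The median was -2.45, and the shares over all genes were 7.28% lower and 3.69% higher. Dlx1, a homeobox gene of ventral forebrain progenitors and their interneurons, was at 5.30 and 1.63 CPM in Cux1 KO and 93.6, 185 and 93.0 CPM in WT males (log2 fold change -5.21 ± 0.75, adjusted p = 0.00107, edgeR). Gad1, which makes GABA, was at 5.08 and 4.31 CPM against 46.7, 57.4 and 30.6 CPM. Sst and Npy, peptides of Lhx6-lineage interneurons, had higher values in both Cux1 KO libraries (Sst 52.1 and 48.8 CPM against 10.6, 3.46 and 23.3 CPM) but did not pass. The summed level of the list was 379 and 595 CPM in Cux1 KO, below 1067 to 1587 CPM in WT males and 682 to 1323 CPM in Cux2 KO males. None of the 11 calls passed the weighted fit, and the number called lower ranged from 6 to 13 as single libraries were left out.

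Genes of motile cilia, the beating cilia of ependymal cells, were tested next. Of 37, 20 were called lower and 0 higher, against 7.28% and 3.69% of all genes. In both Cux1 KO libraries, 18 had 0 counts. The median log2 fold change was -5.62 with those genes set at the floor of 3 counts. Foxj1, the master regulator of motile ciliogenesis, had 0 counts in both Cux1 KO libraries and 89, 498 and 413 in WT males, at least 129-fold lower (adjusted p = 0.000885, edgeR). Odad1, which docks outer dynein arms, had 0 and 0 counts against 503, 428 and 1048 and was the 1 member of the list that also passed the weighted fit. Rsph1, a radial spoke protein, had 0 and 2 counts against 502, 1019 and 1502. The summed level was 45.3 and 78.3 CPM in Cux1 KO and 249 to 468 CPM in WT males.

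Primary cilium genes, used by neurons and glia alike, had a median nearer to 0. Of 36 tested, 10 were called lower and 0 higher, against 7.28% and 3.69% of all genes. In the weighted fit 0 of them passed, and the median was -1.13. Ift88, an intraflagellar transport protein, had 0 and 21 counts in Cux1 KO and 476, 400 and 520 in WT males (log2 fold change -5.02 ± 0.96, adjusted p = 0.0052, edgeR). Ofd1, of the centriole and basal body, had 0 counts in both Cux1 KO libraries and 1658, 621 and 337 in WT males. Arl13b, a ciliary GTPase, overlapped between groups at 13.7 and 12.6 CPM against 26.4, 25.4 and 13.5 CPM.

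Several markers of vascular cells and microglia were at or near 0 in Cux1 KO. Among endothelial genes 6 of 16 were called lower, 3 of them also in the weighted fit. Among microglial genes 4 of 20 and among mural genes 3 of 11 were called lower, 0 of them in the weighted fit. The share called lower over all genes was 7.28% in edgeR and 0.951% in the weighted fit. Tie1, an endothelial receptor, had 0 and 0 counts in Cux1 KO and 321, 191 and 334 in WT males, at least 109-fold lower (adjusted p = 0.000173, edgeR). C1qc, a complement gene of microglia, had 0 and 1 counts against 527, 214 and 1739. The Cux1 KO libraries were not alike in these genes, since Cldn5, of endothelial junctions, had 0 counts in one and 957 in the other. The summed endothelial level was 129 and 232 CPM in Cux1 KO, 354 to 684 CPM in WT males and 153 to 298 CPM in WT females. Without Cux1 KO replicate 2 the endothelial count rose to 10 and the microglial count to 7. The part of these cells in the fold changes of other genes was not tested.

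Of 24 astrocyte and radial glia genes tested, 1 was called lower (Hopx, 1 and 9 counts against 87, 44 and 95) and 0 higher. The median was -0.10, and over all genes 7.28% were called lower and 3.69% higher. The summed level, 14167 and 11168 CPM in Cux1 KO, overlapped the WT male range of 10800 to 12571 CPM. Slc1a3, a glial glutamate transporter, varied within groups, from 1577 to 4111 CPM in Cux1 KO and from 614 to 2193 CPM in WT males.

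**Figure D4:**
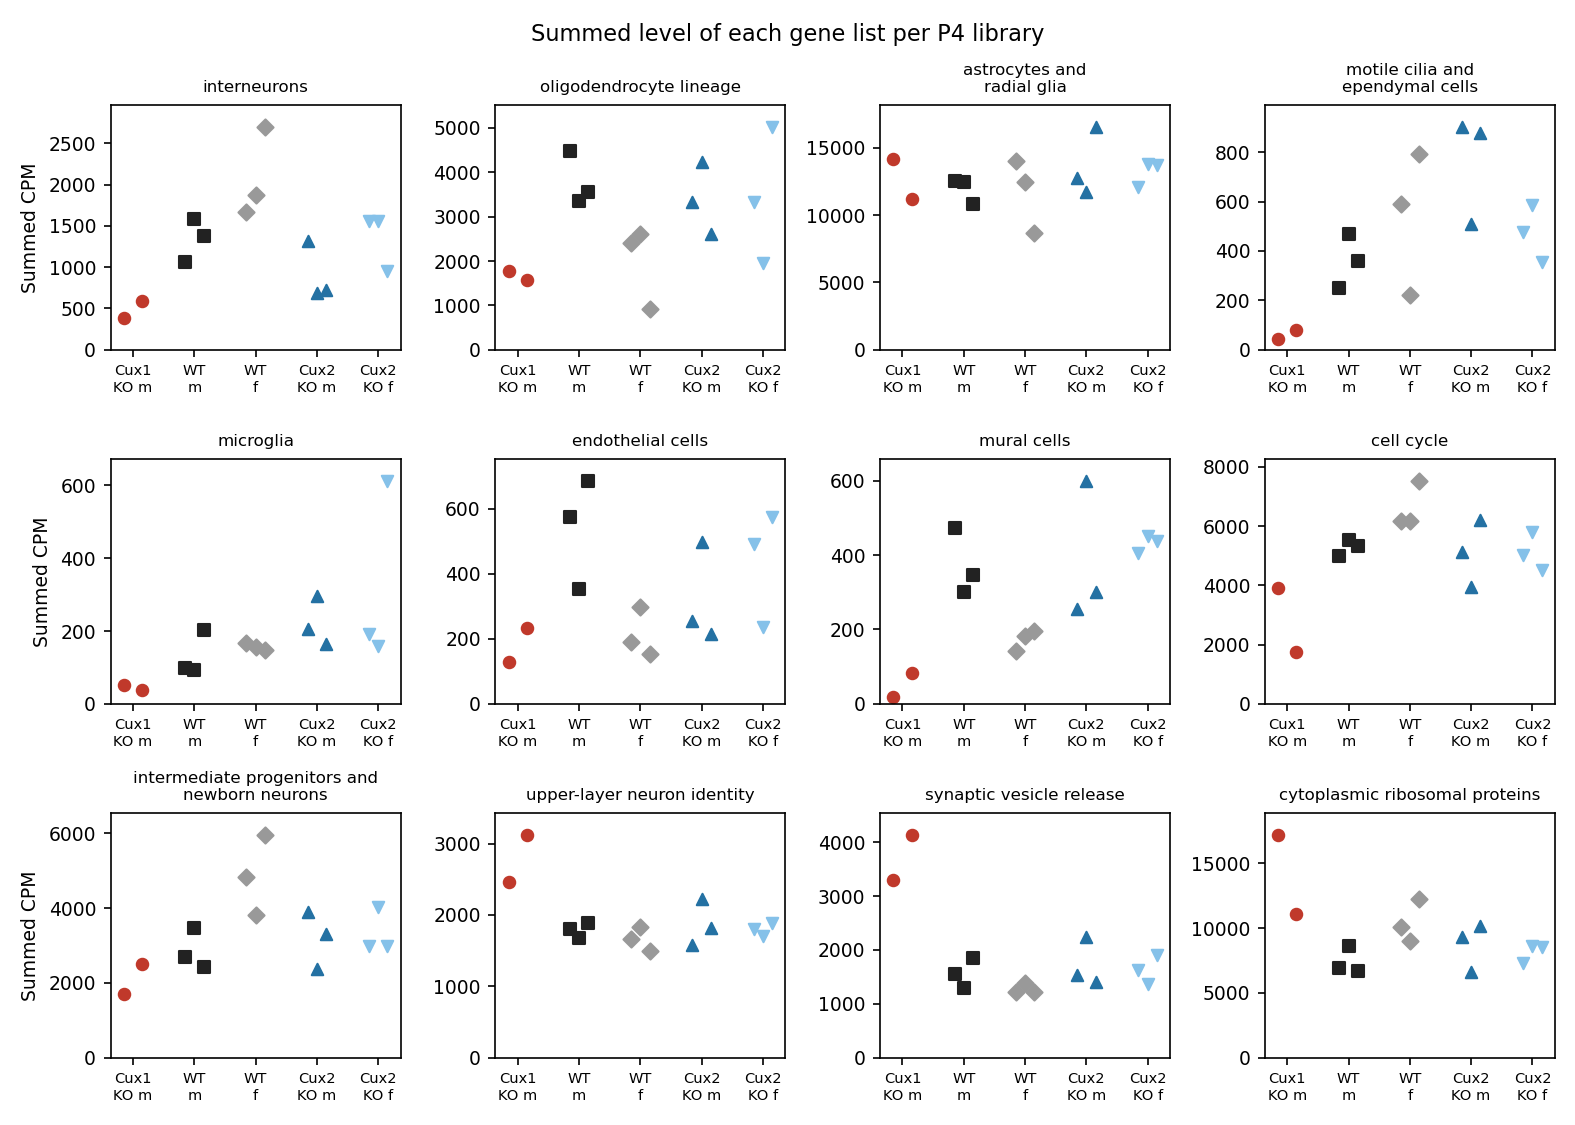
Summed level of 12 gene lists in each P4 library, in CPM on linear axes that start at 0, with a point for each library and groups along the x axis (m, male; f, female). Cux1 KO libraries lie below all 3 WT males for interneurons, oligodendrocyte lineage, motile cilia and cell cycle. For the oligodendrocyte lineage a WT female library, at 911 CPM, lies lower still. Cux1 KO libraries lie above and within the WT male range for astrocytes and radial glia (14167 and 11168 CPM). They lie above WT males for synaptic vesicle release and ribosomal proteins.

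Some genes of proliferation and neurogenesis were called lower in Cux1 KO. Of 36 cell cycle genes tested, all had a negative log2 fold change, 15 were called lower and 5 of these passed the weighted fit. The share of all genes called lower was 7.28% in edgeR and 0.951% in the weighted fit. Cdc20, an activator of the anaphase-promoting complex, was at 64.6 and 67.7 CPM in Cux1 KO and 181, 181 and 226 CPM in WT males (log2 fold change -1.56 ± 0.18, adjusted p = 0.000442, edgeR), and Kif23, a cytokinesis kinesin, was at 1.51 and 0.626 CPM against 45.9, 66.6 and 55.9 CPM. The proliferation marker Mki67 was at 67.8 CPM in one Cux1 KO library and 1.93 CPM in the other, against 172, 170.5 and 120 CPM, and passed in the weighted fit but not in edgeR. The number called lower rose to 31 without Cux1 KO replicate 1 and to 26 with depth as a covariate, and was 6 in the weighted fit. Among genes of intermediate progenitors and newborn neurons, 4 of 14 were called lower and 1 higher, of which the 1 higher also passed the weighted fit. The summed level of this list overlapped, at 1695 and 2514 CPM in Cux1 KO and 2430 to 3479 CPM in WT males. Insm1, a regulator of progenitors, had 0 and 1 counts in Cux1 KO and 1230, 1432 and 354 in WT males, while Neurod2, of postmitotic excitatory neurons, was the gene called higher. Without Cux1 KO replicate 2, 8 members of this list were called lower.

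Some genes of synaptic vesicle release were called higher. Of 46 tested, 13 were called higher and 0 lower, 10 of them also in the weighted fit. The median log2 fold change was 1.40. Over all genes 3.69% were called higher in edgeR and 2.3% in the weighted fit. Cplx2, a complexin that clamps vesicle fusion, was at 358 and 392.3 CPM in Cux1 KO and 38.3, 39.5 and 45.3 CPM in WT males (log2 fold change 3.19 ± 0.23, adjusted p = 3.08e-05, edgeR). Its paralogue Cplx1 was at 117 and 143 CPM against 19.8, 18.9 and 36.2 CPM. Snap25, a SNARE protein, was at 208 and 316 CPM against 76.3, 72.6 and 101 CPM. These 3 genes kept their calls without any single library. They did not overlap between groups, which also held for 859 of the 874 genes called higher. Syt1, the calcium sensor of release, was at 112 and 90.8 CPM against 23.7, 12.5 and 50.7 CPM and did not pass. The count of 13 was 8 without WT replicate 2 or Cux1 KO replicate 2 and 23 against WT of both sexes.

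On the postsynaptic side, 9 of 47 genes were called higher and 0 lower, 7 of them also in the weighted fit. The share of all genes called higher was 3.69% in edgeR and 2.3% in the weighted fit. Cnih2, an auxiliary subunit of AMPA receptors, was at 413 and 616 CPM in Cux1 KO and 137, 131 and 134 CPM in WT males (log2 fold change 1.94 ± 0.22, adjusted p = 0.000396, edgeR). Camk2a, the kinase of synaptic plasticity, was at 48.9 and 22.8 CPM against 6.75, 3.79 and 2.22 CPM. The AMPA receptor subunits themselves did not pass, with Gria2 at 231 and 251 CPM against 440, 319 and 293 CPM. The chloride importer Slc12a2 (NKCC1) was lower, at 13.6 and 8.72 CPM against 43.9, 66.7 and 64.4 CPM (log2 fold change -2.39 ± 0.28, adjusted p = 0.000438, edgeR), and this call passed the weighted fit and each omission of a library. None of the other 12 GABA-A receptor and chloride transporter genes was called.

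Of 28 cytoskeletal genes of neurite growth tested, 8 were called higher (among them Map1b, Stmn2, Mapt, Gap43 and Basp1) and 1 lower (Fat3). The median was 0.94, and 3 of the 8 also passed the weighted fit. For all genes the shares were 3.69% higher and 7.28% lower. Mapt, which encodes tau, was at 618 and 1082 CPM in Cux1 KO and 174, 166 and 315 CPM in WT males (log2 fold change 1.96 ± 0.41, adjusted p = 0.00778, edgeR). The count of 8 fell to 4 without Cux1 KO replicate 2 or WT replicate 1 and to 5 without Cux1 KO replicate 1.

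Among axon guidance genes, 9 of 42 were called lower and 0 higher, 3 of them in the weighted fit. Across all genes 7.28% were called lower in edgeR and 0.951% in the weighted fit. Ntn1, the guidance cue netrin, had 2 and 2 counts in Cux1 KO and 688, 426 and 1073 in WT males, a pooled ratio of 211 (95% counting interval 82.2 to 775). Slit2, a repulsive ligand, had 0 and 1 counts against 224, 145 and 603. Nrp1, a semaphorin receptor, overlapped between groups at 23.5 and 31.6 CPM against 52.5, 29.7 and 63.2 CPM. Nrp2 had 0 counts in both Cux1 KO libraries but also 0 in WT replicate 2. The guidance count rose to 16 without Cux1 KO replicate 2.

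Some neuronal identity genes were called. Over all genes tested, 3.69% were called higher and 7.28% lower. In the upper-layer list, 3 of 18 genes were called higher (Pou3f1, Cux2 and Bhlhe22) and 1 lower (Pou3f2), of which Pou3f1 also passed the weighted fit. Pou3f1, a POU-domain factor, was at 66.97 and 80.5 CPM in Cux1 KO and 19.4, 15.5 and 14.2 CPM in WT males (log2 fold change 2.17 ± 0.36, adjusted p = 0.00225, edgeR), and its paralogue Pou3f2 was at 124 and 102 CPM against 271, 258 and 214 CPM. In the deep-layer list 3 of 15 were called higher, all 3 also in the weighted fit, and 0 lower. One of these, the synaptotagmin Syt6, was at 29.3 and 42.4 CPM against 5.88, 6.86 and 8.48 CPM (adjusted p = 0.00173, edgeR), while the deep-layer factor Bcl11b overlapped between groups. The summed upper-layer level was 2468 and 3118 CPM in Cux1 KO, above 1673 to 1882 CPM in WT males. The upper-layer count of genes called higher was 1 without WT replicate 2, and the deep-layer count was 1 without Cux1 KO replicate 2.

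Some genes of translation and respiration were called higher. Of 79 cytoplasmic ribosomal protein genes, 39 were called higher and 0 lower, 24 of them in the weighted fit. The median log2 fold change was 1.00. Across all genes 3.69% were called higher in edgeR and 2.3% in the weighted fit. Rpsa, of the small subunit, was at 219 and 234 CPM in Cux1 KO and 61.002, 74.4 and 87.1 CPM in WT males (log2 fold change 1.61 ± 0.16, adjusted p = 0.000218, edgeR). Of 74 nuclear genes of oxidative phosphorylation, 12 were called higher, 9 of them also in the weighted fit, and 0 lower, among them Ndufs6 of complex I at 186 and 180 CPM against 82.4, 89.6 and 80.0 CPM. The summed ribosomal level was 17160 and 11085 CPM in Cux1 KO and 6936, 8611 and 6653 CPM in WT males, but it reached 12274 CPM in the shallowest WT female library, of 20919432 counts. With depth as a covariate the ribosomal count was 20, and Rpsa and Rps23 kept their calls while Rpl19 and Rplp1 lost theirs. With all libraries thinned to the smallest total the count was 40. Thinning draws on counts made after the authors removed duplicate reads, so it cannot undo an effect of depth in that step. It was 21 without Cux1 KO replicate 1, the library with the fewest counts, 48 without Cux1 KO replicate 2, 24 without scaling factors and 22 against WT of both sexes. The oxidative phosphorylation count ran from 6 without Cux1 KO replicate 1 to 38 without Cux1 KO replicate 2.

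**Figure D5:**
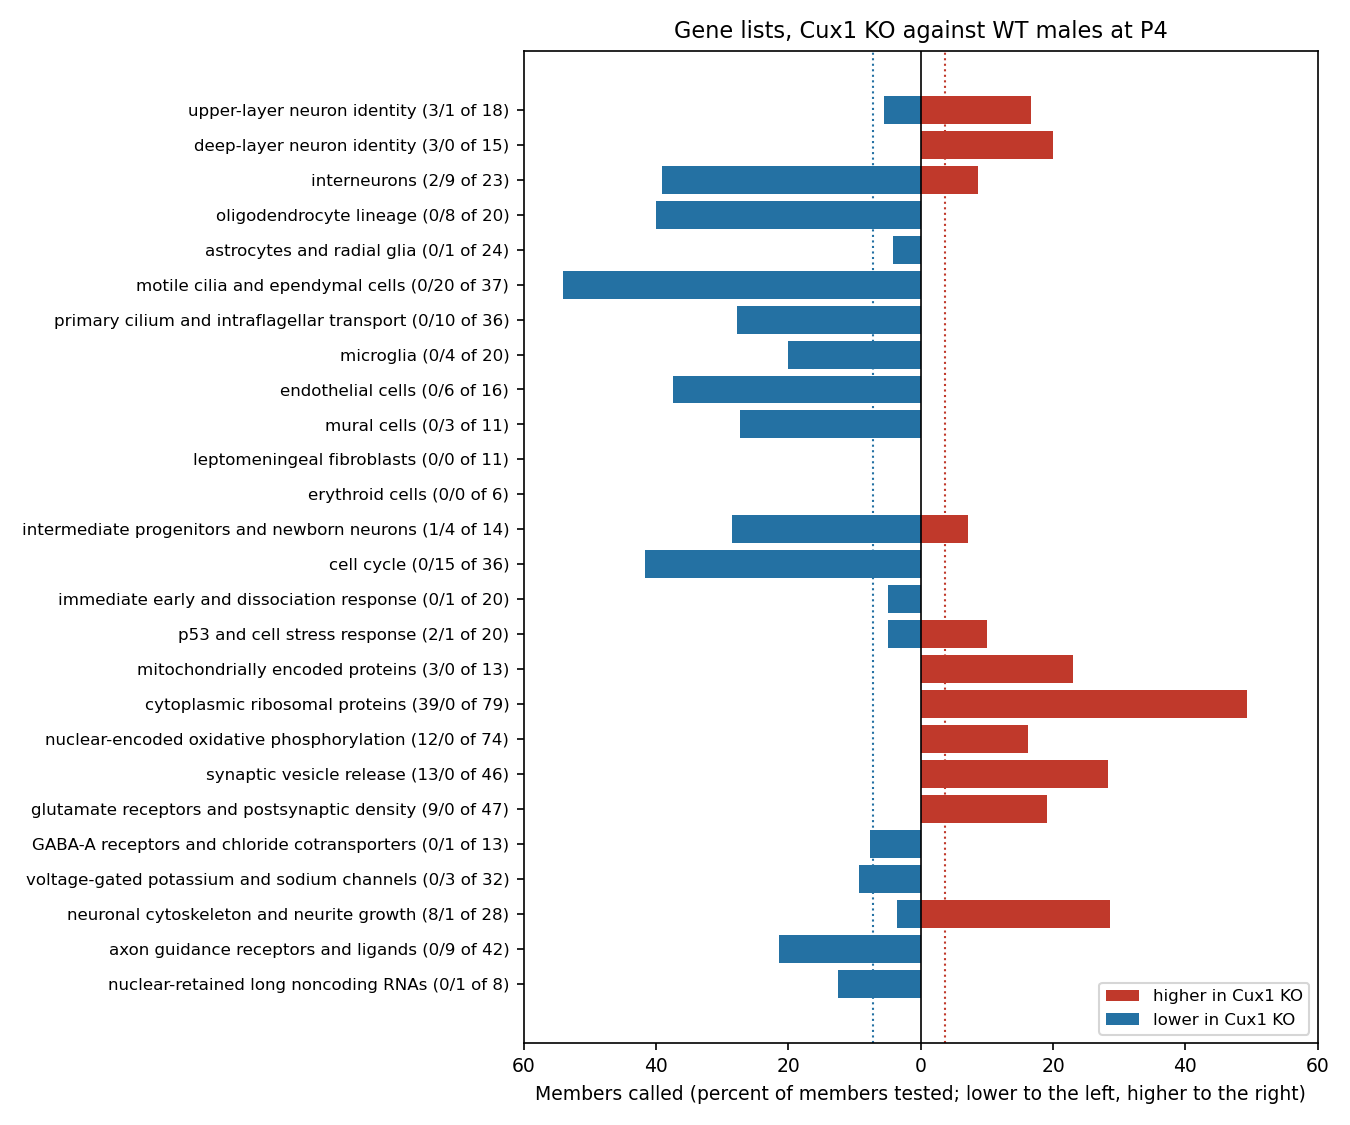
Share of members called in 26 gene lists, in percent of the members tested, with genes higher in Cux1 KO in red to the right and lower in blue to the left. The dotted lines mark the shares for all genes, 3.69% and 7.28%, and the counts stand beside each name as higher/lower of tested. Motile cilia genes reach furthest to the left, at 20 of 37, and ribosomal protein genes furthest to the right, at 39 of 79.

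Stress genes and the remaining lists were read beside the shares for all genes tested, 3.69% called higher and 7.28% lower. Of 20 genes of the p53 and stress response, Aen and Phlda3, both p53 targets, were called higher and Ddit4 lower. The 2 higher calls also passed the weighted fit, but neither was kept at every omission of a single library. Aen was also not called without scaling factors or against WT of both sexes. Cdkn1a, the canonical p53 target, overlapped between groups at 25.04 and 19.2 CPM in Cux1 KO against 17.7, 28.2 and 23.3 CPM in WT males. Of 20 immediate early and dissociation genes, Jun was called lower and Fos overlapped at 282 and 267 CPM against 493, 399 and 197 CPM. The Jun call was lost in the weighted fit and without WT replicate 1. Of 13 mitochondrially encoded genes 3 were called higher, 5 without Cux1 KO replicate 2 and 1 without Cux1 KO replicate 1. These genes differed between the Cux1 KO libraries, with mt-Nd1 at 869 counts in one and 0 in the other, and ranged from 14.8 to 325 CPM in WT males. Mitochondrial genes made up 0.575% and 0.165% of counts in Cux1 KO and 0.296%, 0.442% and 0.192% in WT males. Within each group the share was lower in libraries with larger totals. The part of depth and of the authors' removal of duplicate reads in these values was not tested. Among the remaining lists, 3 of 32 potassium and sodium channel genes (among them Kcnd3) and 1 of 8 nuclear-retained noncoding RNAs (Kcnq1ot1) were called lower, and 0 of 11 fibroblast and 0 of 6 erythroid genes were called in edgeR.

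By fitted log2 fold change, which depends on the prior count for genes at or near 0 and so gives no firm order, the 6 top autosomal protein-coding genes without overlap were named in each direction. Those higher were Lhx6, the relaxin receptor Rxfp1, Gprin3, Galnt9, Fam205c and Pla2g4e. Rxfp1 had 303 and 323 counts in Cux1 KO and 0 in all WT males, WT females and Cux2 KO males, at least 541-fold higher than in WT males (adjusted p = 0.0234, edgeR), a call lost without Cux1 KO replicate 1 and with depth as a covariate. Those lower were Vwa1, St18, Lrrc23, Nid1, Art3 and Fam53b, each at 0 counts in both Cux1 KO libraries and between 636 and 3818 counts in WT males. Nid1, a basement membrane protein, had 1205, 722 and 1755 counts in WT males, at least 473-fold more than in Cux1 KO (adjusted p = 0.000139, edgeR).

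Against Cux2 KO males as a second control, edgeR called 555 genes higher (2.35%) and 1466 lower (6.2%) in Cux1 KO, or 8.54% in all. Both contrasts share the Cux1 KO libraries, so their common calls are not independent. Side by side, Dlx1 differed by -5.21 against WT and -5.20 against Cux2 KO on the log2 scale, Cplx2 by 3.19 and 2.16, Cnih2 by 1.94 and 1.46, and Rpsa by 1.61 and 1.55, each called in both. In this contrast the fit on the 2 groups alone called 147 higher and 442 lower.

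At E19, with the germline allele, 4 Cux1 KO and 4 WT male libraries gave 5 DEGs among 18863 genes at an absolute log2 fold change over 0.5, of which 4 were higher (0.0212%) and 1 lower (0.0053%), or 0.0265% in all, with 1613 at an unadjusted p below 0.05. Baz1a was at a log2 fold change of -0.19 ± 0.22 and Lhx6 at -0.04 ± 0.39, neither called. The higher genes were Dact1, Kcnc2, Nrp2 and 4933404O12Rik and the lower was Pttg1, and of these Nrp2 was called lower at P4. There Nrp2 was at 0 CPM in both Cux1 KO libraries and at 3.84, 0 and 13.8 CPM in WT males. Its P4 call was lost in the weighted fit and without WT replicate 1 or WT replicate 3. Allele, stage, sequencing round and plasmid differ together between the stages, so the difference between E19 and P4 was not tested.

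The study singled out 8 genes on these samples as shared between stages, so they are not independent evidence. Of these, C1qc, Laptm5, Pou2f2 and Fat3 were called lower at P4 in edgeR, 0 of them in the weighted fit, and Sh3bp4, Vsnl1, Car8 and Npy did not pass. Vsnl1, a neuronal calcium sensor, was at 151 and 155 CPM in Cux1 KO and 19.1, 19.9 and 53.4 CPM in WT males (adjusted p = 0.0771, edgeR). Fat3, an atypical cadherin, was at 4.92 and 6.84 CPM against 15.7, 11.4 and 30.9 CPM, a call lost without any 1 of WT replicate 1, WT replicate 3 or either Cux1 KO replicate.

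Calls also differed between 5 bins of genes by exonic length. Among the 4700 shortest genes, of up to 1373 exonic bases, 9.28% were called higher and 2.23% lower, whereas among the 4696 longest 2.28% were higher and 11.01% lower. In the bins between, from shorter to longer, 2.30%, 2.64% and 2.06% were higher, so only the shortest bin stood out for higher calls. The share lower rose through these bins, at 6.28%, 7.91% and 9.04%. The median log2 fold change was 0.11 in the shortest bin, -0.34, -0.26 and -0.32 in those between, and -0.38 in the longest. Of the 874 genes called higher, 368 were processed pseudogenes, and their share of each bin was not counted. The part of length in the results on ribosomal, respiratory and synaptic genes was not tested. The median exonic length was 2829 bases for ribosomal protein genes, within the bin of 1374 to 3188 bases, and 8480 bases for vesicle release genes. The letters ATCGAT, a sequence that CUX proteins can bind, were searched on both strands, on which they read the same, in RefSeq promoters of GRCm38.p6. They were found in 2 of 363 promoters of genes called higher (0.551%) and 11 of 1202 of those called lower (0.915%). Among genes tested they were found in 110 of 13494 promoters (0.815%), and among all 27025 promoters in 0.881%. Counts this small give no firm difference.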

How the data were processed

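The deposited table holds raw counts per gene for 43 libraries. Per the labels and the methods of the study, the authors aligned 60-nucleotide single-end reads with HISAT2 to GRCm39, removed duplicate reads at a set threshold and counted genes with featureCounts. The abundant gene Actb had 30534 and 26893 counts in the Cux1 KO libraries at P4 and 24174, 28568 and 14197 in WT males. Over these 5 libraries its count fell as the total rose. The effect of duplicate removal on comparisons between libraries of unlike depth was not tested. Gene coordinates, exonic length and GC content came from GENCODE M39, which matched 56236 gene identifiers.

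Groups followed the sample titles. Counts were filtered with filterByExpr, scaled by TMM and fitted with edgeR 4.0.16 in R 4.3.3, with a coefficient per group over 14 P4 or 24 E19 libraries, as absolute log2 fold change over 1 at P4 or 0.5 at E19 and Benjamini-Hochberg adjusted p under 0.05. CPM used the same effective library sizes. DESeq2 1.42.0, which the authors used, and limma 3.58.1 were alternatives. The fits were run on simulated data with known changes. Each simulated gene had the same spread in every group and no loss of detection in Cux1 KO. The simulation therefore cannot check the assumption that the P4 groups vary alike. Counting intervals (95%, exact conditional binomial on pooled counts) and the floor of 3 counts over a group cover counting error only.

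The members and the 28 gene lists were chosen with earlier results of these data known. Genes named were Cux1, Cux2, Baz1a, Lhx6, Cldn11, the 8 genes the study shared between stages, the first 2 members and up to 3 called members of each list, and the 6 largest non-overlapping autosomal protein-coding changes by fitted log2 fold change in each direction with a mean of at least 5 CPM. Other list members were named after their values were seen. The numbers shared by replicates did not pair the libraries. Results on some genes covered by this rule are not reported here.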

Additional observations from a re-analysis of the deposited data

Results flagged for a closer look

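In groups of 4 libraries at E19, a library was set apart where its gap to the next exceeded Dixon's 95% critical value, which chance exceeds in about 1 of 20 groups, and 34 groups were examined. Fat3 was at 40.4 CPM in Cux1 KO E19 male replicate 1 and between 24.9 and 26.9 CPM in the other libraries. Dact1 was at 29.2 CPM in WT E19 male replicate 3 and between 35.7 and 36.5 CPM in the others.

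For 6 of the named genes every Cux1 KO male library lay on one side of the WT males at E19 and on the other side at P4. Vsnl1, Car8, Npy and Pou2f2 are among the 8 genes that the study chose on these samples, so they are not independent evidence. In all, 129 named genes were tested at P4, some of them named for their calls there. Over all genes tested at P4, both Cux1 KO libraries were above all 3 WT males for 15.5% and below them for 19.8%. Vsnl1 had a log2 fold change of 2.31 at P4 and -1.45 at E19, Car8 1.40 and -0.68, and Npy 2.05 and -1.34. Pou2f2 had -7.61 at P4 and 0.98 at E19, Odad1 -11.89 and 0.79, and Ift88 -5.02 and 0.45. The P4 values of Odad1 and Pou2f2 rest on 0 counts and on 0 and 2 counts in Cux1 KO, so they depend on the prior count and are no bound. Allele, plasmid and sequencing round changed with stage, and the difference was not tested.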

How the results depend on the processing

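The number of DEGs depended on how the spread was estimated. Against WT at P4, the fit on the 2 groups alone called 0 higher and 0 lower (4021 genes at an unadjusted p below 0.05), male libraries alone 517 and 969, DESeq2 without shrinkage 1347 and 3415, and limma with a weight per group 544 and 225. Without a fold change threshold 1419 were higher. Against Cux2 KO the same settings gave 147 and 442, 262 and 786, 937 and 3141, and 182 lower with weights, with 1068 higher without the threshold. At E19 they gave 7 and 10 on 2 groups, 3 lower in males, 21 and 17 in DESeq2 and 27 and 46 with its prior, 0 lower with DESeq2's size factors or without TMM, and 12 and 10 without a filter on low counts.

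Leaving out 1 library at a time gave 678 to 913 higher and 1366 to 2933 lower against WT, 326 to 578 and 1021 to 2716 against Cux2 KO, and at E19 1 to 3 higher and 0 to 0 lower. The highest counts of lower genes came without Cux1 KO replicate 2, which left 1 library assumed to vary like the other groups.

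With the replicate block the counts were 764 and 1363 against WT, 490 and 1170 against Cux2 KO, and 4 and 1 at E19. Deviations of same-numbered libraries correlated at -0.00560 and 0.00820 at P4 and between -0.0237 and 0.226 at E19, so the numbers did not pair them.

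Of 89 named calls, 0 were reversed under 20 alternatives, 37 passed the weighted fit and 27 passed all but the fit on 2 groups. Depth as a covariate, robust prior spread and the weighted fit were chosen after seeing the data. With 2 Cux1 KO libraries that detect fewer genes, low counts limit what can be said of weakly expressed genes.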
